A study of Mus musculus with 10 samples.

Results

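Fatty acid oxidation in cells runs in mitochondria and in peroxisomes, and 35 mouse genes of both routes were followed here in adipocyte cultures. The genes were taken by symbol from a fixed list, 35 of the 28987 genes in the deposited tables. No measured value enters the rule of membership, but the list was chosen with earlier results of these data known. It holds 19 mitochondrial members, 9 peroxisomal enzymes and transporters, and 3 enzymes found in both compartments (Eci2, Ech1 and Crat). The remaining members are the peroxisome biogenesis genes Pex11a and Pex19, the cytosolic thioesterase Acot1 and the nuclear receptor Ppara. All 35 had values, and 34 reached 1 TPM (a transcript level scaled for transcript length and for the total of the library) in at least 2 of the 10 libraries and were tested. Acot1 stayed under 1 TPM in every library, between 0.484 and 0.949 TPM, and was not tested. Only the ketone body enzyme Bdh1, among the tested members, fell under 1 TPM in some libraries.

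The cultures were grown from inguinal white fat of male C57BL/6 mice aged 6 to 8 weeks, by digestion of the fat pads and growth of the released cells to confluence. They received LPS (bacterial lipopolysaccharide, 100 ng/ml), norepinephrine (1 mM), recombinant BAFF (500 ng/ml), recombinant APRIL (500 ng/ml) or saline, each for 24 hours. BAFF and APRIL are related cytokines of the TNF family best known for their action on B cells, LPS activates innate immune signalling, and norepinephrine is the sympathetic transmitter that starts fat breakdown in adipocytes. RNA was sequenced from 2 libraries per group. Whether the 2 derive from different mice or dishes is not stated in the labels, and the spread behind every p-value is that between such libraries, which may be technical. Part of the labels speaks of treated tissue and part of cultured adipocytes.

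In mitochondrial oxidation, long-chain fatty acids enter as carnitine esters through Cpt1, the carrier Slc25a20 and Cpt2. Acyl-CoA dehydrogenases, the trifunctional protein of Hadha and Hadhb, Hadh and thiolases such as Acaa2 then shorten the chain in repeated rounds, and Etfa, Etfb and Etfdh pass the electrons to the respiratory chain. Peroxisomes import very long and branched chains through ABC transporters and shorten them with their own oxidases, multifunctional enzymes and thiolases. The nuclear receptor Ppara drives many genes of both routes in liver and brown fat, and its rodent targets there include Acaa1b and Ehhadh.

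The pair of libraries labelled APRIL differed widely from the other 8. Their Pearson correlations of log2(TPM + 1) with the other libraries lay between 0.850 and 0.886, whereas the other 8 correlated with each other at 0.948 to 0.991. The 4 Y-linked genes counted had a summed level of 0.489 and 0.775 TPM in this pair, against 93.8 to 123 TPM in the other 8, although all samples are labelled male. The 19 mitochondrial members summed to 1745 and 990.4 TPM in these libraries, so the pair also differed within itself. Because all groups share 1 estimate of the spread in the 10-library fit, the counts below for groups other than APRIL are given both from that fit and from an 8-library fit without the libraries labelled APRIL. The 8-library fit left 13730 genes tested, against 14166 in the 10-library fit. White adipocyte markers (10 genes) summed to 5903 to 6518 TPM in LPS libraries, 16502 to 16864 TPM with norepinephrine, 8659 to 10709 TPM with BAFF, 2824 to 6467 TPM in the pair labelled APRIL and 8953 to 10049 TPM with saline. Lep was the only one of them under 1 TPM in every library. Endothelial markers (6 genes) and lymphocyte markers (7 genes) summed to at most 19.1 and 8.88 TPM in any library, and the B cell gene Ms4a1 was listed at 0 in all 10. Smooth muscle and pericyte markers (6 genes) summed to 881 and 1022 TPM with norepinephrine and to 1471 and 1555 TPM with saline. Macrophage markers (9 genes) had a higher sum in the first than in the second library of every group, though not every gene did. The sums were 1281 and 289 TPM with norepinephrine and 1293 and 428 TPM with saline. Skeletal muscle markers (7 genes), relevant because muscle expresses Cpt1b, summed to 24.0 and 188 TPM in norepinephrine libraries and to 14.6 and 139 TPM in saline libraries.

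Several members overlap or closely resemble other genes, which limits how far their levels can be told apart. Acaa1a and Acaa1b, the near copies of peroxisomal 3-ketoacyl-CoA thiolase, lie on chromosome 9 in opposite orientation (mm10, Acaa1a at chr9:119339676-119350299 on the plus strand and Acaa1b at chr9:119148023-119157093 on the minus strand). Their coding sequences, 1272 bases each, differed at 44 positions, an identity of 96.5%. Of all 31-base words in the annotated transcripts of Acaa1b, 40.0% also occurred in Acaa1a, whereas 16.9% of the words of Acaa1a occurred in Acaa1b. The first 120 coding bases of each (GENCODE transcripts) are shown because the norepinephrine results turn on telling these copies apart; capitals mark the 4 bases that differ.
Acaa1a: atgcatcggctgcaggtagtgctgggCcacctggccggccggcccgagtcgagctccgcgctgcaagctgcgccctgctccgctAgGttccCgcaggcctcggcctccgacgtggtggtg
Acaa1b: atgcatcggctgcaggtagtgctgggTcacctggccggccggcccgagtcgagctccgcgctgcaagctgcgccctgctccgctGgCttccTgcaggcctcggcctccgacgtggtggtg
Upstream of their start sites the copies were less alike. The RefSeq windows from 250 bases before to 50 bases after the start (GRCm38.p6, the same assembly as mm10) matched at 42.1% of 309 aligned columns, and held 10 CG pairs in Acaa1a and 4 in Acaa1b. Capitals in these windows mark TATAA on either strand, a motif looked for after the windows had been seen; Acaa1a has no match. The annotated Acaa1a gene also has transcripts that begin before this RefSeq start.
Acaa1a, chr9:119341044-119341343, plus strand: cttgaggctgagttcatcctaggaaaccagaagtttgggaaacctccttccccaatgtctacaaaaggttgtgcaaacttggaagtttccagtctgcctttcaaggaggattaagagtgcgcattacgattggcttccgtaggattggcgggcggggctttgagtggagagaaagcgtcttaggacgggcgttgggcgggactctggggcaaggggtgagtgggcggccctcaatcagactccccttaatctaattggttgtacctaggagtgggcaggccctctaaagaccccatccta
Acaa1b, chr9:119157044-119157343, minus strand: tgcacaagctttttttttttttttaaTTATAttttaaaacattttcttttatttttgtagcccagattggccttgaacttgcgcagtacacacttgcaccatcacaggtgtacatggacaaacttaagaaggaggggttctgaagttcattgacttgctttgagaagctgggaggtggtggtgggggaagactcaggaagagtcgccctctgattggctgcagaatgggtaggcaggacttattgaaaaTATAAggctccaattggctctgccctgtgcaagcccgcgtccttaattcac
The pair Hadha and Hadhb, the subunits of the trifunctional protein, start back to back on chromosome 5 with 273 bases between their RefSeq start sites. Their GENCODE starts, at 30155162 for Hadha and 30155248 for Hadhb, lie closer together. Their windows overlap by 228 bases, shown in capitals within the Hadhb window because both genes moved together below.
Hadhb, chr5:30155003-30155302, plus strand: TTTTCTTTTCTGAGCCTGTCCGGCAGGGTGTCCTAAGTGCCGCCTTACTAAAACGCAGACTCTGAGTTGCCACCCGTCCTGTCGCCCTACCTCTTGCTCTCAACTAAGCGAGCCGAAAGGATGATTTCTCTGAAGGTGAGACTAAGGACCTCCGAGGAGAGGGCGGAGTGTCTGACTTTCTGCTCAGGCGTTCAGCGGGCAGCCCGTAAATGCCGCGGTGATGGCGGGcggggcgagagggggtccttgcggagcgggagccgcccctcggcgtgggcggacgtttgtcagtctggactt
The medium-chain dehydrogenase gene Acadm, whose promoter is a textbook site of nuclear receptor control, is shown with its match to AGGTCA, the 6-base element that nuclear receptors bind, in capitals on the opposite strand.
Acadm, chr3:153944594-153944893, minus strand: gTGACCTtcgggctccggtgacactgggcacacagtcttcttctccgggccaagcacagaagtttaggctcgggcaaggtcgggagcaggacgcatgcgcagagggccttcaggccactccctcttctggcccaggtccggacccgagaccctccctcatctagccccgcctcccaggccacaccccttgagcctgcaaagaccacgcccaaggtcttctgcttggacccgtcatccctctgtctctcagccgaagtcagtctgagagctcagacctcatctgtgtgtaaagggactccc
Among the 28 members with a RefSeq window, 3 held AGGTCA on either strand (Acadm, Acadvl and Cpt1a), against 16.3% of all 32851 windows. The full repeat AGGNCA followed after 1 base by a second AGGNCA, the spacing bound by PPAR receptors, was in none of the 28 members and in 0.381% of all windows. TGACGTCA, the site bound by CREB, was in none of the 28 either and in 1.79% of all windows. TATAA was in 3 of the 28 (Acaa1b, Acot2 and Acot8) and in 24.9% of all windows. Any factor may also act outside these windows.

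Other shared stretches touched Cpt1b, of whose 31-base words 79.7% also lie in the overlapping gene model Gm44502, not analysed here. For Etfb the share in other genes was 49.9%, mostly in Gm45233, also not analysed here, and for Acadvl 33.2%, all of it in the overlapping gene Dvl2. Dvl2 had 12.9 and 12.6 TPM with norepinephrine and 10.5 and 10.8 TPM with saline. Hadhb shared 23.7% of its words, mostly with Gm13910, which stayed under 1 TPM in every library. For the other pair of near copies, Acot1 and Acot2, coding identity was 85.6%, and Acot2 held at least 88.0% of their summed TPM in every library.

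In saline cultures the members spanned a wide range of levels on the TPM scale, which is scaled for transcript length. The highest were the dienoyl-CoA isomerase Ech1 at 325 ± 24.5 TPM and the electron transfer subunit Etfa at 298 ± 33.7 TPM (mean ± SD, n = 2 each), whose libraries overlapped. Etfb, Hadhb, Hadha and Acadl followed, at 215, 205, 155 and 125 TPM on average. The lowest of the tested members was Bdh1 with 1.64 and 1.30 TPM, next to the receptor Ppara with 2.78 and 2.46 TPM. The peroxisomal multifunctional enzyme Ehhadh had 4.75 and 4.64 TPM and the muscle-type transferase Cpt1b 4.80 and 5.26 TPM, ranges that did not overlap although they were neighbours in order. Of the Cpt1 forms, the liver-type Cpt1a was higher, at 13.6 and 12.4 TPM.

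**Figure D1:**
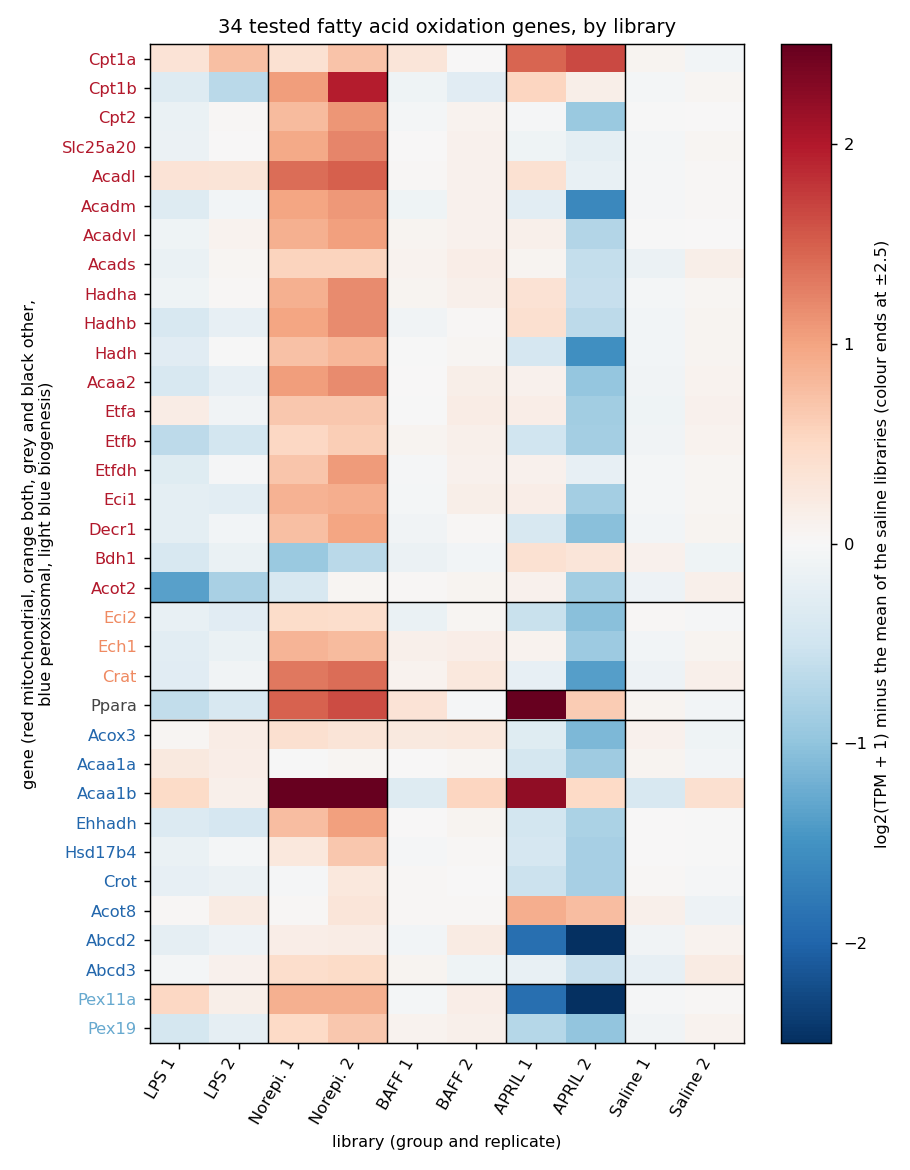
Change of the 34 tested members in each library (columns, 2 per group) as log2(TPM + 1) minus the mean of the saline libraries (colour, red higher, blue lower, ends at 2.5 in either direction); rows are genes, with name colours for the compartment. Both norepinephrine libraries lie above both saline libraries for 29 of the 34 genes, the BAFF columns are pale, and the second library labelled APRIL is bluer than the first.

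Over all 5 groups at once, 31 of 34 members differed in the moderated F test of the 10-library fit, where 60.4% of all tested genes did. Without Norepinephrine library 2 the count was 20. The 3 that did not pass were Acads, Etfa and Acot2. In the 8-library fit, over the 4 other groups, 25 of 34 members differed, against 12.8% of all tested genes. The 9 members that did not pass there were Cpt1a, Bdh1 and 7 of the 9 peroxisomal members (Acox3, Acaa1a, Hsd17b4, Crot, Acot8, Abcd2 and Abcd3). The smallest adjusted p in the 8-library F test was that of the long-chain dehydrogenase Acadl (adjusted p = 0.00117), and Acadl had 159 and 158 TPM with LPS, 332 and 354 TPM with norepinephrine, 129 and 135 TPM with BAFF and 123 and 128 TPM with saline.

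Most mitochondrial oxidation genes were higher with norepinephrine, and the peroxisomal thiolase Acaa1b was higher by far more. The summed TPM of the 19 mitochondrial members was 2898 and 3193 with norepinephrine and 1535 and 1687 with saline. In the 10-library fit, 3 of 34 members rose with norepinephrine, Slc25a20, Acadl and Acaa1b, and none fell, where 0.614% of all tested genes were called higher and 0.0847% lower. Before adjustment, 26 were higher and 1 was lower at p under 0.05, beside 1582 higher and 907 lower of all 14166 tested genes. Unadjusted, 28 members were higher and 1 lower in the 8-library fit, beside 2230 higher and 1108 lower of all 13730 tested genes. After adjustment 24 members rose and none fell in that fit, where 5.04% of all tested genes were called higher and 1.18% lower. These 24 were 16 of the 19 mitochondrial members, all 3 enzymes of both compartments, 2 of the 9 peroxisomal members (Acaa1b and Ehhadh), Pex11a, Pex19 and Ppara. Both norepinephrine libraries lay above both saline libraries for 29 of 34 members, a pattern that 34% of all tested genes showed. The median log2 fold change of the members was 0.85, and that of all tested genes 0.04. Leaving out 1 saline or norepinephrine library at a time left 1 library in that group. It lowered the calls of the 8-library fit both among the members and over all tested genes. In these fits 30 to 33 members kept a positive change.

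White adipocyte markers moved in the same comparison: 4 of the 9 tested rose in the 8-library fit and none in the 10-library limma fit (3 at an unadjusted p under 0.05), and none fell. The lipid-binding protein Fabp4 had 11391 and 11802 TPM with norepinephrine and 5452 and 6287 TPM with saline, while the adipokine Adipoq had 918 and 934 TPM with norepinephrine and 925 and 1062 TPM with saline. Brown or beige adipocyte markers (7 genes) summed to 506 to 533 TPM with norepinephrine and to 175 to 180 TPM with saline, and 2 of the 6 tested rose in the 10-library fit and 5 in the 8-library fit. Their defining gene Ucp1, the uncoupling protein of thermogenic fat, had 12.9 and 26.3 TPM with norepinephrine and 0.0461 and 0.123 TPM with saline. The part of these markers in the members' change was not tested. More cells of a type and more RNA per cell cannot be told apart in bulk libraries.

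At the carnitine shuttle, which admits long-chain fatty acids to the mitochondrion, 1 of the 4 members rose with norepinephrine in the 10-library fit and 3 in the 8-library fit. The carrier Slc25a20 had 49.0 and 59.4 TPM with norepinephrine, against 24.1 and 25.9 TPM with saline. That is a log2 fold change of 1.08 ± 0.12 (± SE), with adjusted p = 0.0258 in the 10-library fit and 0.00829 in the 8-library fit. The SE of this and all later log2 fold changes is that of the 10-library fit, also where only an 8-library p is given. The inner-membrane transferase Cpt2 had 82.9 and 103 TPM with norepinephrine and 46.9 and 47.7 TPM with saline (0.95 ± 0.26, adjusted p = 0.134 and 0.0136 in the same order of fits, which is kept below). Both genes were higher in each norepinephrine library than in either saline library. The muscle-type Cpt1b had 11.4 and 22.5 TPM with norepinephrine and 4.80 and 5.26 TPM with saline (1.504 ± 0.29, adjusted p = 0.0656 and 0.0366). The second library of both groups also held more skeletal muscle marker RNA. With norepinephrine the markers summed to 24.0 and 188 TPM, where Cpt1b stood at 11.4 and 22.5 TPM. With saline they summed to 14.6 and 139 TPM, where Cpt1b stood at 4.80 and 5.26 TPM. With LPS the markers were also higher in the second library (13.7 and 120 TPM), but Cpt1b was lower there (3.83 and 2.80 TPM). With BAFF the markers summed to 24.2 and 106 TPM and Cpt1b stood at 4.56 and 3.95 TPM. In the libraries labelled APRIL the markers summed to 139 and 29.6 TPM and Cpt1b stood at 7.71 and 5.69 TPM. The part of muscle RNA in the Cpt1b values was not tested. Cpt1a, the liver-type form and the usual rate-setting step, had 17.2 and 21.8 TPM with norepinephrine and 13.6 and 12.4 TPM with saline and was not called (0.54 ± 0.18, adjusted p = 0.199 and 0.141).

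All 4 acyl-CoA dehydrogenases, which take the first oxidation step and divide the chain lengths among them, rose with norepinephrine in the 8-library fit, and 1 of them, Acadl, in the 10-library fit. Acadl, for long chains, had 332 and 354 TPM with norepinephrine and 123 and 128 TPM with saline (1.45 ± 0.17, adjusted p = 0.0258 and 0.00194). Acadm, for medium chains, had 157 and 168 TPM with norepinephrine and 76.7 and 80.8 TPM with saline (1.04 ± 0.36, adjusted p = 0.210 and 0.00974). No library of one group reached into the range of the other for either gene. Acadvl, for very long chains, had 188 and 206 TPM with norepinephrine and 99.1 and 102 TPM with saline (0.96 ± 0.24, adjusted p = 0.111 and 0.00630). The short-chain enzyme Acads changed least of the 4, with 85.1 and 85.3 TPM under norepinephrine and 52.0 and 63.2 TPM under saline (0.56 ± 0.21, adjusted p = 0.226 and 0.0440).

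The later steps of the mitochondrial spiral followed, and the 4 members, Hadha, Hadhb, Hadh and Acaa2, all rose in the 8-library fit; none passed in the 10-library limma fit, where all 4 had an unadjusted p under 0.05. For the trifunctional protein subunits that share the start region shown above, Hadha had 289 and 349.8 TPM with norepinephrine and 149 and 160.5 TPM with saline, and Hadhb had 406 and 464 TPM with norepinephrine and 197 and 214 TPM with saline. Their log2 fold changes were 1.04 ± 0.26 and 1.08 ± 0.29 (8-library adjusted p = 0.00811 and 0.00711; 10-library 0.113 and 0.130). Acaa2, the medium-chain thiolase that ends each round, had 122 and 134 TPM with norepinephrine and 55.2 and 61.9 TPM with saline (1.11 ± 0.29, adjusted p = 0.124 and 0.00682). Hadh, the medium- and short-chain hydroxyacyl-CoA dehydrogenase, had 118 and 126 TPM with norepinephrine and 67.7 and 73.9 TPM with saline (0.78 ± 0.30, adjusted p = 0.248 and 0.0155). In each of these genes the groups were separate.

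The 3 members that carry electrons from the dehydrogenases to ubiquinone also rose in the 8-library fit, by 0.57 to 0.88 on the log2 scale; none passed in the 10-library limma fit, 2 of them having an unadjusted p under 0.05. Etfdh, the membrane oxidoreductase, had 65.5 and 85.5 TPM with norepinephrine and 39.1 and 41.6 TPM with saline (0.88 ± 0.17, adjusted p = 0.0655 and 0.0269). The flavoprotein subunit Etfa had 473 and 475 TPM under norepinephrine and 274 and 322 TPM under saline (0.67 ± 0.30, adjusted p = 0.289 and 0.0364), and its partner Etfb 310.0 and 329 and 204 and 227 TPM in the same groups (0.57 ± 0.14, adjusted p = 0.104 and 0.0291). Auxiliary enzymes for unsaturated chains also rose in the 8-library fit, 4 of 4, and none passed in the 10-library limma fit, where all 4 had an unadjusted p under 0.05. Among them the isomerase Eci1 had 115 and 118 TPM with norepinephrine and 60.2 and 64.7 TPM with saline (0.89 ± 0.28, 8-library adjusted p = 0.00697), and the reductase Decr1 65.8 and 77.3 TPM with norepinephrine and 36.5 and 40.8 TPM with saline (0.87 ± 0.21, 8-library adjusted p = 0.0149). Ech1 and Eci2, which work in both compartments, had 589.6 and 565 TPM (Ech1) and 144 and 143 TPM (Eci2) with norepinephrine, against 308 and 343 TPM (Ech1) and 107 and 103 TPM (Eci2) with saline. Their log2 fold changes were 0.83 ± 0.27 and 0.45 ± 0.16, with 8-library adjusted p = 0.00697 and 0.0421. The carnitine acetyltransferase Crat, which buffers acetyl groups as carnitine esters, had a larger log2 fold change, with 306 and 325 TPM under norepinephrine and 112 and 134 TPM under saline (1.36 ± 0.32, adjusted p = 0.0978 and 0.00564).

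The 2 members with a negative change were Bdh1, the ketone body dehydrogenase, and the mitochondrial thioesterase Acot2, and neither was called in these 2 fits. Bdh1 had 0.303 and 0.539 TPM with norepinephrine and 1.64 and 1.30 TPM with saline, the norepinephrine libraries below both saline libraries (-0.80 ± 0.17, adjusted p = 0.0798 and 0.0580). In the 8-library fit Bdh1 passed the threshold with a replicate block (adjusted p = 0.0422) and with median-ratio scaling (adjusted p = 0.0491), whereas its adjusted p in the other alternatives ran from 0.0555 to 0.255. Acot2 had 10.02 and 14.2 TPM under norepinephrine and 12.4 and 14.9 TPM under saline, which overlap (-0.18 ± 0.33, adjusted p = 0.833 and 0.682). Summing Acot1 with Acot2 left the change at -0.17 ± 0.32 (adjusted p = 0.836 and 0.680). With median-ratio scaling Acaa1a, close to no change, turned negative as well, which left 31 rather than 32 members positive.

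Ppara, the receptor, had 9.003 and 10.1 TPM with norepinephrine, against 2.78 and 2.46 TPM with saline. The groups were well apart, with a log2 fold change of 1.54 ± 0.64 (adjusted p = 0.266 in the 10-library fit, where the libraries labelled APRIL spread from 4.60 to 29.0 TPM, and 0.00767 in the 8-library fit). The peroxisome division factor Pex11a had 47.7 and 47.2 TPM with norepinephrine and 24.7 and 25.7 TPM with saline (0.89 ± 0.21, adjusted p = 0.0953 and 0.0219). Pex19, the chaperone for peroxisomal membrane proteins, had 111 and 126 TPM with norepinephrine and 74.1 and 83.3 TPM with saline (0.58 ± 0.13, adjusted p = 0.0904 and 0.0328).

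**Figure D2:**
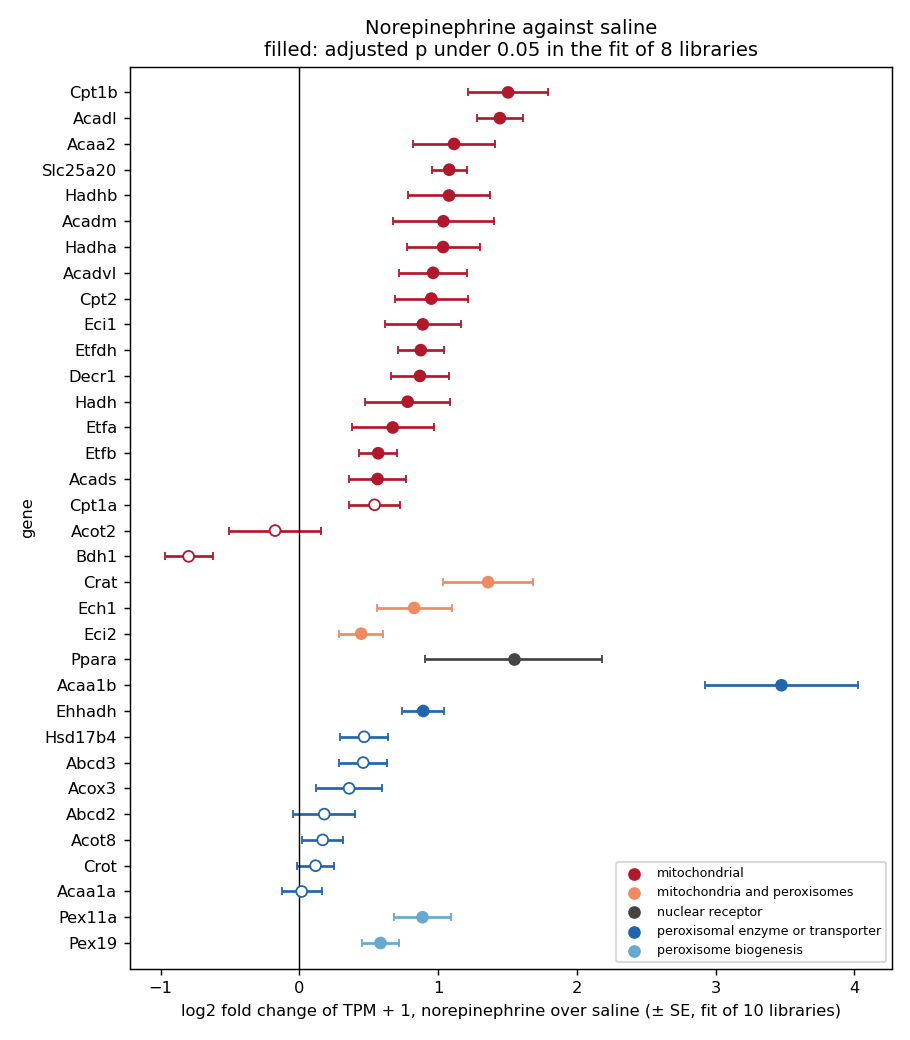
Log2 fold change of TPM + 1 with norepinephrine over saline for the 34 tested members (points, bars ± SE from the 10-library fit, 2 libraries per group), grouped and coloured by compartment; filled points passed adjusted p 0.05 in the 8-library fit. Acaa1b lies farthest to the right at 3.47, Acaa1a close to 0 at 0.02, and Bdh1 and Acot2 are the only points left of 0 (Acaa1a joins them at -0.04 with median-ratio scaling).

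Among the peroxisomal enzymes, the largest difference in the whole set sat beside one of the smallest. Acaa1b had 216 and 271 TPM with norepinephrine and 15.6 and 27.7 TPM with saline (3.47 ± 0.55, adjusted p = 0.0476 and 0.00711). Its near copy Acaa1a had 44.4 and 46.6 TPM with norepinephrine and 47.1 and 42.9 TPM with saline, with overlapping libraries (0.02 ± 0.14, adjusted p = 0.970 and 0.925). The share of the pair's summed TPM assigned to Acaa1b was 82.9% and 85.3% with norepinephrine and 24.9% and 39.2% with saline. Summed, the pair had 260.5 and 317 TPM with norepinephrine and 62.8 and 70.6 TPM with saline (2.09 ± 0.36, adjusted p = 0.0548 and 0.00401). The sum passed in the 8-library fit and not in the 10-library fit, and how the authors' quantification divided shared reads between the copies was not tested.

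**Figure D3:**
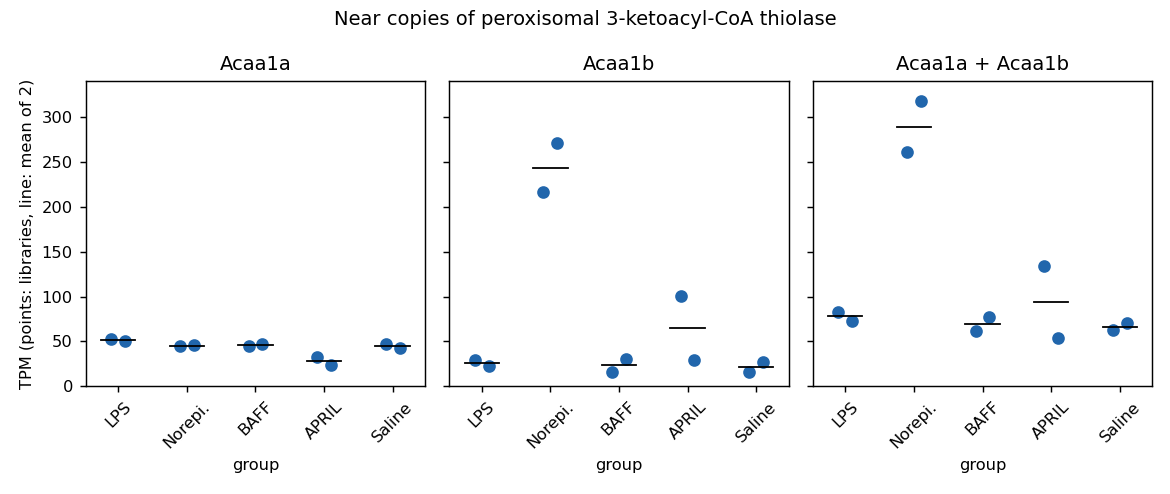
TPM of Acaa1a, of Acaa1b and of their sum in each library (points, 2 per group; lines are group means). Acaa1b reaches 216 and 271 TPM with norepinephrine, against 15.6 and 27.7 TPM with saline, while Acaa1a stays between 42.9 and 53.2 TPM in the 8 libraries not labelled APRIL.

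Ehhadh, which carries out the middle steps of peroxisomal oxidation, had 8.70 and 10.5 TPM with norepinephrine and 4.75 and 4.64 TPM with saline (0.89 ± 0.15, adjusted p = 0.0527 and 0.0134). The other 7 peroxisomal members were not called in either fit. Hsd17b4, the second multifunctional enzyme, had 70.3 and 93.7 TPM with norepinephrine and 58.9 and 58.1 TPM with saline (0.47 ± 0.17, 8-library adjusted p = 0.104), and the transporter Abcd3 had 96.6 and 100.0 TPM with norepinephrine and 61.9 and 81.8 TPM with saline (0.46 ± 0.17, 8-library adjusted p = 0.117). Both differed at an unadjusted p under 0.05 in the 10-library fit. The branched-chain oxidase Acox3 and the very-long-chain transporter Abcd2 had 21.2 and 20.0 TPM (Acox3) and 21.3 and 21.7 TPM (Abcd2) with norepinephrine, and 17.1 and 14.7 TPM (Acox3) and 17.6 and 20.2 TPM (Abcd2) with saline. The carnitine octanoyltransferase Crot, which hands shortened chains on to mitochondria, and the thioesterase Acot8 had log2 fold changes of 0.12 ± 0.13 and 0.17 ± 0.15.

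Side by side, 16 of the 19 mitochondrial and 2 of the 9 peroxisomal members rose with norepinephrine in the 8-library fit, against 2 of 19 and 1 of 9 in the 10-library fit. The difference between the compartments was not tested. The wider lists counted below cannot decide whether it recurs, since the mitochondrial one also holds genes that are not oxidation enzymes, such as Acacb. In these lists 6 of 18 further mitochondrial and 9 of 18 further peroxisomal genes rose in the 8-library fit. Their median log2 fold changes were 0.31 and 0.42 in the 10-library fit. The median log2 fold change with norepinephrine was 0.89 over the 19 mitochondrial members and 0.36 over the 9 peroxisomal members. As a mean of log2(TPM + 1) over the members, the mitochondrial group was at 6.44 ± 0.16 with norepinephrine and 5.65 ± 0.07 with saline, and the peroxisomal group at 5.18 ± 0.13 with norepinephrine and 4.50 ± 0.05 with saline (SD, n = 2). The gap between the compartments was 1.26 ± 0.03 with norepinephrine and 1.15 ± 0.02 with saline. Without Acaa1b it was 1.60 ± 0.05 with norepinephrine and 1.14 ± 0.08 with saline, so the closeness of the means rested on that gene. In summed TPM, norepinephrine libraries held 1.89 times the saline level of the mitochondrial members and 2.09 times that of the peroxisomal members, which became 1.27 times without Acaa1b. No test was run on these scores, since members are not replicates. The gap in the other groups was 0.99 ± 0.09 with LPS, 1.12 ± 0.04 with BAFF and 1.35 ± 0.08 in the libraries labelled APRIL.

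**Figure D4:**
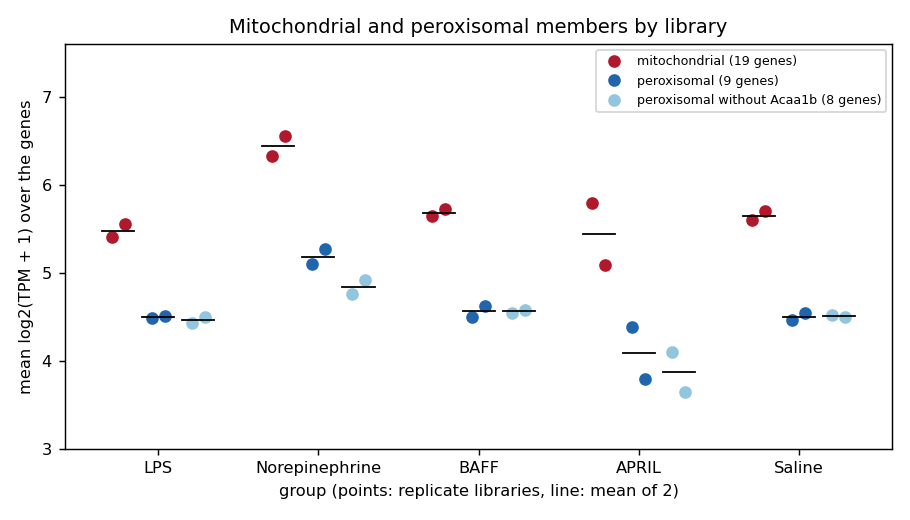
Mean log2(TPM + 1) over the 19 mitochondrial members (red), the 9 peroxisomal members (blue) and the peroxisomal members without Acaa1b (light blue) in each library (points; lines are means of 2). Norepinephrine libraries are the highest for all 3 quantities, and the 2 libraries labelled APRIL lie apart from each other.

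LPS and norepinephrine libraries, compared directly, differed in most of the mitochondrial members, with LPS lower. In the 10-library fit 15 of 34 members were lower with LPS and none higher, where 3.62% of all tested genes were called higher and 4.19% lower. The 15 comprised 10 mitochondrial members, Eci2, Crat, Acaa1b, Ehhadh and Pex19. The 8-library fit called 26 lower and none higher, where 5.84% of all tested genes were higher and 10.1% lower, among them 17 of the 19 mitochondrial and 3 of the 9 peroxisomal members. This comparison shares its norepinephrine libraries with the one above. Slc25a20 had 22.6 and 25.2 TPM with LPS and 49.0 and 59.4 TPM with norepinephrine (-1.14 ± 0.12, adjusted p = 0.00327 and 0.00238). Ehhadh had 3.48 and 3.28 TPM under LPS and 8.70 and 10.5 TPM under norepinephrine (-1.27 ± 0.15, adjusted p = 0.00448 and 0.00170). In both genes the LPS libraries lay below every norepinephrine library. Etfb had 136 and 157 TPM with LPS and 310.0 and 329 TPM with norepinephrine (-1.12 ± 0.14, adjusted p = 0.00509 and 0.00163). Ppara was 1.37 and 1.75 TPM in LPS libraries and 9.003 and 10.1 TPM in norepinephrine libraries (-2.05 ± 0.64, adjusted p = 0.0957 and 0.00129). Acaa1b had 29.4 and 22.8 TPM with LPS and 216 and 271 TPM with norepinephrine (-3.17 ± 0.55, adjusted p = 0.0168 and 0.00319), and the summed pair changed by -1.87 ± 0.36 (adjusted p = 0.0241 and 0.00128). Cpt1a was not called, with 16.8 and 22.5 TPM under LPS and 17.2 and 21.8 TPM under norepinephrine, a log2 difference of 0.01 ± 0.18 with a 95% interval of -0.42 to 0.43. White adipocyte markers were also lower with LPS, 3 of the 9 tested in the 10-library fit and all 9 in the 8-library fit; their part in the members' difference was not tested. Leaving out 1 LPS or norepinephrine library left 1 library in that group. It lowered the calls of the 10-library fit both among the members and over all tested genes, while most members kept a negative change.

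Against saline, few members differed with LPS. No member was called in the 10-library fit by limma, in which 2.87% of all tested genes were called higher and 0.932% lower; before adjustment, 1 was higher and 4 were lower at p under 0.05. The 8-library fit called 1 member higher, Acadl, and 2 lower, Etfb and Acot2, where 4.55% of all tested genes were higher and 2.34% lower. Etfb had 136 and 157 TPM with LPS and 204 and 227 TPM with saline (-0.56 ± 0.14, adjusted p = 0.0780 and 0.0265). Acot2 had 4.72 and 7.37 TPM with LPS and 12.4 and 14.9 TPM with saline, the largest change of the set in this comparison (-1.08 ± 0.33, adjusted p = 0.141 and 0.0410). Acadl went the other way, with 159 and 158 TPM under LPS and 123 and 128 TPM under saline (0.34 ± 0.17, adjusted p = 0.389 and 0.0437). In each of these genes the LPS libraries lay outside the range of the saline libraries. Leaving out LPS library 1 or either saline library brought the 8-library count to 0. Cpt1a had 16.8 and 22.5 TPM with LPS and 13.6 and 12.4 TPM with saline (0.55 ± 0.18, adjusted p = 0.182 and 0.143). The median log2 fold change of the 34 members was -0.16, beside -0.01 for all tested genes, and 25 of the 34 were negative. White adipocyte markers summed to 5903 and 6518 TPM with LPS and to 8953 and 10049 TPM with saline, and 4 of the 9 tested fell in the 8-library fit and none in the 10-library limma fit (3 at an unadjusted p under 0.05); their part was not tested.

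No member was called with BAFF. Of all tested genes, limma called 0% higher and 0.0141% lower in the 10-library fit, and 0% higher and 0.0146% lower in the 8-library fit. No member reached an unadjusted p under 0.05 in the 10-library fit, and 1 did, Acox3, in the 8-library fit. Over all tested genes, 336 were higher and 67 lower at that threshold in the 10-library fit, and 591 and 81 in the 8-library fit. Log2 fold changes ran between -0.20 and 0.26. The 3 members of smallest p were Acox3 (0.26 ± 0.24, unadjusted p = 0.305, adjusted p = 0.996), Cpt1a (0.15 ± 0.18, unadjusted p = 0.430, adjusted p = 0.996), Pex19 (0.11 ± 0.13, unadjusted p = 0.447, adjusted p = 0.996). Cpt1b had 4.56 and 3.95 TPM with BAFF and 4.80 and 5.26 TPM with saline, and Ppara 3.58 and 2.55 TPM with BAFF and 2.78 and 2.46 TPM with saline. For Cpt1a the values were 16.2 and 13.0 TPM with BAFF and 13.6 and 12.4 TPM with saline. Acaa1b had 16.5 and 30.9 TPM with BAFF and 15.6 and 27.7 TPM with saline, overlapping. The sign of these small changes depended on scaling: 27 of 34 were positive as deposited and 6 of 34 after median-ratio scaling, while the median of all tested genes lay at 0.11 before that scaling and at -0.01 after it. The 95% intervals of the members in the 8-library fit lay between -0.90 (Cpt1b) and 0.97 (Acaa1b).

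The libraries labelled APRIL differed from saline in 15 of 34 members, 3 higher and 12 lower, where 33.1% of all tested genes were called higher and 25% lower. Against that background the members had fewer calls upward and more downward, a difference that was not tested. Cpt1a had 37.3 and 43.1 TPM in the libraries labelled APRIL, against 13.6 and 12.4 TPM with saline (1.55 ± 0.18, adjusted p = 0.000264), the highest Cpt1a of any group. Acot8 had 17.3 and 15.6 TPM in these libraries and 9.67 and 7.87 TPM with saline (0.84 ± 0.15, adjusted p = 0.00179). The third that rose, Ppara, had 29.0 and 4.60 TPM with APRIL as labelled and 2.78 and 2.46 TPM with saline (1.84 ± 0.64, adjusted p = 0.0378), its pair of values lying far apart. The largest falls were in 2 peroxisomal genes, the transporter Abcd2 and the division factor Pex11a. Abcd2 had 4.41 and 2.27 TPM in the libraries labelled APRIL, against 17.6 and 20.2 TPM with saline (-2.24 ± 0.22, adjusted p = 0.000121). Pex11a had 6.07 and 3.65 TPM in those libraries and 24.7 and 25.7 TPM with saline (-2.19 ± 0.21, adjusted p = 9.5e-05). For both genes every library labelled APRIL was below every other library of the study. The other 10 that fell were Hadh, Etfb and Decr1 of the mitochondrial members, Eci2, Pex19 and the peroxisomal Acox3, Acaa1a, Ehhadh, Hsd17b4 and Crot, with log2 fold changes between -0.98 and -0.62. Among them Crot had 12.5 and 10.1 TPM in the libraries labelled APRIL, against 19.1 and 18.3 TPM with saline, and Acaa1a had 32.8 and 23.9 TPM in those libraries and 47.1 and 42.9 TPM with saline. Acaa1b was not called, with 101 and 29.8 TPM in the libraries labelled APRIL, against 15.6 and 27.7 TPM with saline (1.36 ± 0.55, adjusted p = 0.0651).

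Much of the mitochondrial set differed between the 2 libraries labelled APRIL. Acadm had 65.4 and 25.2 TPM in them, Hadhb 271 and 129.5 TPM and Acaa2 63.3 and 29.6 TPM. The first library was above both saline libraries for Hadhb and Acaa2 and below both for Acadm. The second was below both saline libraries for each of these genes. With only the second library labelled APRIL in the fit, 6 of 34 members had a positive change against saline. With only the first, 17 of 34 did. Summed TPM of the mitochondrial members was 0.849 times the saline level in the libraries labelled APRIL, and that of the peroxisomal members 0.872 times, or 0.679 times without Acaa1b. Preadipocyte and fibroblast markers (10 genes) summed to 2023 to 2588 TPM across that pair and to 8641 to 9877 TPM with saline. The labelled treatment and the other ways in which these libraries stand apart cannot be told apart.

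BAFF against the libraries labelled APRIL shares the libraries labelled APRIL with the comparison above. Here 13 of 34 members were higher with BAFF and 2 lower, where 28.3% of all tested genes were higher and 29% lower. Pex11a had 24.3 and 28.4 TPM with BAFF and 6.07 and 3.65 TPM in the libraries labelled APRIL (2.25 ± 0.21, adjusted p = 9.22e-05), and Abcd2 had 17.9 and 21.8 TPM with BAFF and 4.41 and 2.27 TPM in the libraries labelled APRIL (2.30 ± 0.22, adjusted p = 0.000116). The 2 lower with BAFF were Cpt1a (-1.40 ± 0.18, adjusted p = 0.000465) and Acot8 (-0.81 ± 0.15, adjusted p = 0.00220). With only the second library labelled APRIL in the fit, 28 of 34 members were on the higher side with BAFF. With only the first, 19 of 34 were.

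Other genes of the same pathways, from lists chosen by function, were counted beside the members for norepinephrine against saline. Of all tested genes, 0.614% were called higher and 0.0847% lower in the 10-library fit, and 5.04% and 1.18% in the 8-library fit. The further mitochondrial list also holds genes that are not oxidation enzymes, such as Acacb. Of its 19 genes tested, 1 rose in the 10-library fit and 6 of 18 in the 8-library fit, and none fell. Etfrf1, a regulator of the electron transfer flavoprotein, was the 1 called in both, with 60.3 and 62.4 TPM with norepinephrine and 32.6 and 34.8 TPM with saline (0.85 ± 0.13, adjusted p = 0.0444 and 0.00564). The carnitine transporter Slc22a5 had 16.9 and 15.6 TPM with norepinephrine and 9.10 and 9.28 TPM with saline (0.76 ± 0.20, adjusted p = 0.125 and 0.00974). Acacb, whose product malonyl-CoA inhibits Cpt1, had 29.9 and 39.1 TPM with norepinephrine and 7.65 and 9.88 TPM with saline (1.86 ± 0.42, adjusted p = 0.0868 and 0.0125). The acyl-CoA synthetase Acsl1, which activates fatty acids, had 354 and 469 TPM with norepinephrine and 104 and 137 TPM with saline (1.76 ± 0.49, adjusted p = 0.141 and 0.0134). Of 18 further peroxisomal lipid oxidation genes, 2 rose in the 10-library fit, Acot4 among them, and 9 in the 8-library fit. The carrier protein and thiolase Scp2 had 527 and 525 TPM with norepinephrine and 295 and 315 TPM with saline (0.79 ± 0.16, adjusted p = 0.0740 and 0.00711). The thioesterase Acot4 had 3.68 and 3.91 TPM with norepinephrine and 0.842 and 1.12 TPM with saline (1.28 ± 0.17, adjusted p = 0.0280 and 0.0123).

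Of 18 peroxisome biogenesis and division genes, 2 rose in the 10-library fit and 6 in the 8-library fit. Those called in both were the import receptor Pex5 (0.67 ± 0.097, adjusted p = 0.0382 and 0.0132) and its recycling ATPase Pex6 (0.82 ± 0.12, adjusted p = 0.0404 and 0.0125). Among 18 regulators of the PPAR and PGC-1 system, 2 rose in the 10-library fit, the coactivator and lipid phosphatase Lpin1 (1.34 ± 0.19, adjusted p = 0.0337) and the clock repressor Nr1d1 (1.43 ± 0.22, adjusted p = 0.0453), and 6 in the 8-library fit. Esrra, the estrogen-related receptor alpha, was called in the 8-library fit (0.82 ± 0.17, adjusted p = 0.0720 and 0.0199), whereas the coactivator Ppargc1a, named after its values were seen, was not (0.71 ± 0.19, adjusted p = 0.128 and 0.09998). Of 16 PPAR targets outside oxidation, 2 rose in the 10-library fit, the lipid droplet coat protein Plin2 (1.35 ± 0.15, adjusted p = 0.0258) and the lipase inhibitor Angptl4 (0.82 ± 0.11, adjusted p = 0.0337), and 11 of 15 in the 8-library fit. The pyruvate dehydrogenase kinase Pdk4, which spares glucose when fat is burned, had 144 and 125 TPM with norepinephrine and 12.4 and 15.1 TPM with saline (3.20 ± 0.60, adjusted p = 0.0632 and 0.00311). None of the 5 ketone body enzymes tested was called in either limma fit, with 1 (10-library) and 3 (8-library) at an unadjusted p under 0.05. No gene fell in any of these 6 lists in either fit. In the libraries labelled APRIL against saline, 15 of the 18 regulators were higher and none lower, among them Nr1d1 (log2 fold change 4.97 ± 0.22) and Ppargc1a (3.30 ± 0.19). Of all tested genes, 33.1% were called higher and 25% lower in that comparison, and the difference from this share was not tested.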

How the data were processed

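RNA sequencing values of 10 libraries, 5 groups of 2, were used. The authors deposited one table per library with TPM for each Ensembl gene, made with kallisto against mm10 per the submitters' processing notes; the version and annotation release are not given in the sources used here. No counts were given, so the depth behind each value is unknown and no counting interval was computed. The deposited TPM of a library summed to between 953553 and 964726. kallisto assigns reads that fit several transcripts by estimation, which bears on near copies.

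Gene symbols and positions came from GENCODE (mm10), which matched 27458 of 28987 IDs. A gene entered the tests if 2 or more libraries had it at 1 TPM or above. Values were taken as log2(TPM + 1), and limma 3.58.1 (R 4.3.3) fitted the 5 group means together, with a mean-variance trend and two-sided moderated tests. This left 5 residual degrees of freedom; p-values were adjusted by Benjamini-Hochberg over all genes within a comparison, with calls at 0.05. A fold change on this scale understates the change of low genes. The same fit without the libraries labelled APRIL had 4 residual degrees of freedom. Scripts were tested on simulated data. Sequences came from GENCODE transcripts and RefSeq (GRCm38.p6), aligned with Biopython 1.88 under Python 3.11.15; figures used matplotlib 3.10.9.

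Members and lists were chosen with earlier results of these data known. Every member is accounted for; those past 0.05 in any comparison are given with values, and of each list (further mitochondrial oxidation, further peroxisomal oxidation, peroxisome biogenesis, PPAR and PGC-1 regulators, PPAR targets, ketone body enzymes, and markers of 8 cell types) up to 4 called genes by smallest p. A gene of the further peroxisomal list that this rule would name is not reported here. Alternatives changed the pseudocount, the filter, the scaling, the libraries in the fit, the trend and the replicate block, or left out mitochondrially encoded genes or 1 library.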

Additional observations from a re-analysis of the deposited data

How the results depend on the processing

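With 2 libraries per group, counts of called members depended on which libraries entered the fit. For norepinephrine against saline, 3 members were called in the 10-library fit, 24 without the APRIL libraries, 14 with only the compared libraries and 5 with median-ratio scaling. That count fell when any 1 norepinephrine, saline or BAFF library was left out. The calls over all tested genes fell in the same fits, so the drop was not particular to the members. In the 8-library fit the member count and the calls over all tested genes both fell without 1 norepinephrine, saline or BAFF library. Without 1 LPS library the member count there was nearly unchanged. For LPS against saline, 0 members became 3 without the APRIL libraries and 1 with median-ratio scaling; leaving out an LPS or saline library kept it at 0 in the 10-library fit and gave 0 to 2 in the 8-library fit, while leaving out either APRIL library gave 3. For LPS against norepinephrine, 15 became 26 without the APRIL libraries and 8 with no filter. The member count and the calls over all tested genes both fell without 1 LPS, norepinephrine, BAFF or saline library. Both rose without 1 APRIL library. APRIL against saline gave 10 to 28 and BAFF against APRIL 11 to 28 with 1 library of the compared groups left out, and the F test 20 to 34 with any 1 left out. Mitochondrially encoded genes, 15.0% to 22.4% of TPM, were left out in one alternative, which gave 17 called members for norepinephrine in the 8-library fit. The named members called in the 10-library fit kept their direction under every alternative run for them; for norepinephrine against saline the call was lost in 18 member and setting pairs and held in 24. The summed thiolase pair moved past the threshold with a filter of 5 TPM (2.09, adjusted p = 0.0484), without the APRIL libraries (2.09, adjusted p = 0.00401), with only the compared libraries (2.09, adjusted p = 0.0261) and as Acaa1b alone (3.47). The mitochondrial minus peroxisomal change with norepinephrine was 0.108 as a mean, 0.76 as a median, 0.46 without Acaa1b (chosen after seeing the data), 0.055 with a pseudocount of 0.1 and 0.059 with Eci2, Ech1 and Crat counted as peroxisomal. The cause of these shifts was not tested.

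The labels do not say that a replicate number marks a shared source, and with 2 numbers the libraries were not treated as paired. Deviations of libraries with the same number correlated at 0.27 to 0.48 among the 4 groups other than APRIL, and at -0.11 to 0.03 with APRIL. In each of those 4 groups the first library held more macrophage marker RNA and the second more skeletal muscle marker RNA, a hint from the data that the numbers may share a source there. With a replicate block, norepinephrine against saline gave 2 called members in the 10-library fit and 25 higher and 1 lower in the 8-library fit, and LPS against saline gave 6 in the 8-library fit. Crossing the numbers of the APRIL libraries gave 18 called members against saline and 18 against BAFF, compared with 15 and 16 under the block as numbered. The alternatives to the 8-library fit and the crossed numbers were chosen after seeing the data. Depth is unknown, so the limit it sets on low genes such as Bdh1 cannot be given.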
